A study of Mus musculus with 20 samples.

Results

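The genes described are 8 of the 28632 genes in the count table, listed by name for their place in glucose uptake, glucose sensing and the ChREBP-TXNIP axis. They are *Slc2a2*, *Slc2a1*, *Slc2a3*, *G6pc2*, *G6pc3*, *Mlxipl*, *Txnip* and *Arrdc4*. All 8 had counts in every library. The rule lists them by name, and the names were chosen with earlier results of these data known. RNAseq was read from pancreatic islets of 12-week-old mice after 24 h of culture, in 6 Ctrl, 4 β-Mfn1KO, 5 β-Mfn2KO and 5 β-Mfn1/2DKO libraries of both sexes. The knockouts carried loxP alleles of *Mfn1*, of *Mfn2* or of both, together with *Ins1*-Cre, which acts in β-cells and leaves the other islet cells intact. The labels call the controls wild type. The study's methods describe mice with Cre alone or with floxed alleles alone, pooled, on the C57BL/6N background. Mitofusins 1 and 2 join the outer membranes of mitochondria during fusion, and the comparisons ask what losing either or both does to islet mRNA.

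Glucose enters the rodent β-cell through Glut2, the product of *Slc2a2*, and is then phosphorylated. Glucose-6-phosphatase catalytic subunits reverse that step, with *G6pc2* as the islet form and *G6pc3* as the widely expressed form. ChREBP, the product of *Mlxipl*, pairs with Mlx and binds carbohydrate response elements when glucose metabolites rise. *Txnip*, which encodes an inhibitor of thioredoxin, and its relative *Arrdc4* are well-known glucose-induced genes of this kind, and both proteins restrain glucose uptake through Glut1 (*Slc2a1*). *Slc2a3* encodes Glut3, a high-affinity transporter best known from neurons.

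Library totals ran from 12400687 to 20329064 counts in Ctrl, 15745680 to 16685381 in β-Mfn1KO, 15110046 to 59533407 in β-Mfn2KO and 65533388 to 122947313 in β-Mfn1/2DKO. Depth and genotype therefore cannot be told apart between β-Mfn1/2DKO and Ctrl, nor between β-Mfn1/2DKO and β-Mfn1KO. *Mfn1* spanned 1518 to 1807 normalized counts in Ctrl and 621 to 770 in β-Mfn1KO, and *Mfn2* 3089 to 4373 in Ctrl and 1474 to 1688 in β-Mfn2KO. In β-Mfn1/2DKO they spanned 687 to 1062 and 2022 to 2131. Normalized counts here are raw counts brought to a common library size with TMM factors. The islet identity of the libraries was checked on markers. Hormones and other markers of β-, α-, δ- and PP cells were present in every group, but β-cell markers were lower in the double knockout. Summed over 8 β-cell markers (*Ins1*, *Ins2*, *Iapp*, *Mafa*, *Nkx6-1*, *Pdx1*, *Ucn3*, *Slc30a8*), the level was 293420 to 421240 TPM, a per-length scale with the same sum in each library, in Ctrl and 139660 to 220080 in β-Mfn1/2DKO. All 8 fell, with a median log2 difference of −0.88, beside 0.06 over all genes. In each single knockout 1 of the 8, *Ins1*, whose locus carries Cre and which is named after its values were seen, passed as lower (−0.94 in β-Mfn2KO, −0.82 in β-Mfn1KO). Of all genes 0.0559% passed in β-Mfn2KO and 0.0279% in β-Mfn1KO. All 8 endothelial markers rose, and their summed level was 74.96 to 111 TPM in Ctrl and 155 to 229 in β-Mfn1/2DKO. Of 12 acinar markers 11 rose, with sums of 585 to 3402 TPM in Ctrl and 1120 to 85320 in β-Mfn1/2DKO, where replicates 4 and 5 held 38962 and 85320 and the other 3 stayed within the Ctrl range. Of the other lists, 1 of 5 α-cell, 2 of 5 duct and 1 of 6 stellate and fibroblast markers rose, 1 of 9 macrophage and lymphocyte markers fell (summed level 1163 TPM in Ctrl replicate 6, 1705 in β-Mfn2KO replicate 5 and 126 to 381 in the other libraries), and 0 of 3 δ-cell and 0 of 1 PP-cell markers passed. Beside these marker counts, 9.59% of all genes rose and 6.86% fell in β-Mfn1/2DKO against Ctrl at an adjusted p under 0.05 (edgeR). *Cd3e*, the T-cell marker, was at 0 in all Ctrl libraries. The part of these shifts in the results below was not tested except where values without replicates 4 and 5 are given. In bulk islets, fewer β-cells and less RNA per β-cell cannot be told apart. The study measured pancreatic β-cell mass in slightly younger mice and reported no significant difference between its genotypes.

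The members differed widely in level. Within Ctrl libraries, in mean TPM, on which genes can be compared, *G6pc2* stood highest at 1639 ± 188 (SD, n = 6), rank 34 of the 28579 genes with a length. *Slc2a2* followed at 211 ± 27.5, *Txnip* at 142 ± 30.9 and *Mlxipl* at 122.6 ± 35.2, and the last pair overlapped within their spread. *G6pc3* was at 42.9 ± 6.10, *Slc2a1* at 15.1 ± 3.88 and *Arrdc4* at 13.2 ± 2.16, and *Slc2a1* and *Arrdc4* again overlapped. *Slc2a3* was lowest at 1.74 ± 0.353 TPM. In β-Mfn1/2DKO *G6pc2* was again highest, but *Txnip* at 269 ± 73.3 TPM and *Mlxipl* at 149 ± 26.6 stood above *Slc2a2* at 86.5 ± 22.6 (SD, n = 5), and *Arrdc4* at 20.8 ± 2.99 above *Slc2a1* at 17.2 ± 2.48, within their spread.

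In β-Mfn1/2DKO islets the main β-cell glucose transporter and the islet glucose-6-phosphatase fell, while *Txnip*, *Arrdc4* and *Slc2a3* rose and ChREBP itself showed no change that passed the test. Of the 8 members 5 passed at an adjusted p under 0.05 (edgeR quasi-likelihood test, Benjamini-Hochberg over all genes), 3 higher and 2 lower, and 3 of the 5 exceeded 1.5-fold. Over all genes 16.5% passed, 9.59% higher and 6.86% lower, and 5.21% passed and exceeded 1.5-fold. Among the 12274 genes whose mean reached 100 normalized counts, as all 8 members did, 33.6% passed. Of all genes that passed 58.3% were higher, a share that was 85% with total-count scaling. The libraries of Ctrl and β-Mfn1/2DKO did not overlap for 2 members, *Slc2a2* and *G6pc2*, against 10.6% of all genes. The median log2 difference was 0.08 over the members and 0.06 over all genes. With depth class (above or up to 40000000 counts) as a covariate, *Slc2a2* (−1.24, adjusted p = 0.00815 by edgeR) and *G6pc2* (−0.73, adjusted p = 0.0191) passed and the other 6 did not. In that fit 728 of all 28632 genes passed. *Txnip* was then at 0.78 (adjusted p = 0.264), *Arrdc4* at 0.36 (adjusted p = 0.467) and *Slc2a3* at 0.33 (adjusted p = 0.628).

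**Figure D1:**
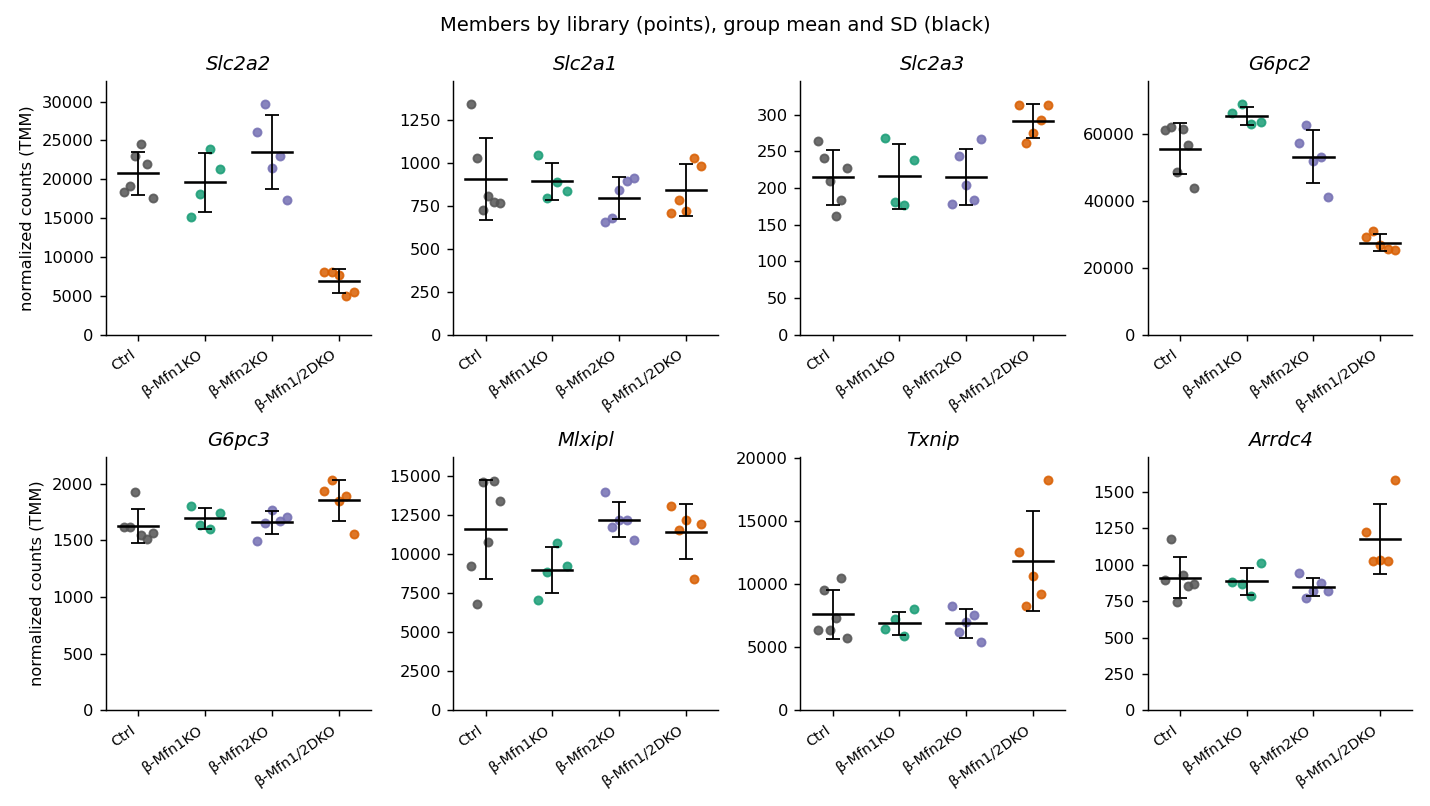
Normalized counts (TMM scale, y axis from 0) of the 8 members by genotype, with 1 point per library and the group mean and SD in black. *Slc2a2* in the 5 β-Mfn1/2DKO libraries lay at 4924 to 8098, below the 15149 of the lowest other library, and *G6pc2* at 25168 to 30940, below 41005.

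*Slc2a2* (ENSMUSG00000027690, GRCm38 chr3:28697903-28731359, plus strand) showed the largest difference of the members. Its normalized count had a lowest value of 17626, a median of 20512 and a highest of 24562 in Ctrl, and was 8098, 8064, 7695, 4924 and 5521 in β-Mfn1/2DKO replicates 1 to 5. Every double knockout library was below every other library, and replicates 4 and 5, the acinar-rich ones, were lowest. The level fell 3.03-fold (log2 −1.60, SE 0.15, 95% interval −1.91 to −1.28, adjusted p = 1.9e-07 by edgeR). Without replicates 4 and 5 the log2 difference was −1.36 (adjusted p = 2.09e-06). Among the 5 double knockout and 2 β-Mfn2KO libraries above 40000000 counts it was −1.5 (adjusted p = 0.00524). Both deep β-Mfn2KO libraries stood apart on markers, replicate 4 with a summed acinar level of 13075 TPM and replicate 5 with 1705 TPM of macrophage and lymphocyte and 140 TPM of stellate and fibroblast markers.

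Neither of the other transporters passed as lower. *Slc2a1* (chr4:119108711-119137983, plus) ran from 726 through a median of 793 to 1343 in Ctrl and was 709, 783, 719, 1027 and 984 in β-Mfn1/2DKO, so the groups overlapped over most of their range. Its log2 difference was −0.11 (95% interval −0.41 to 0.19, adjusted p = 0.671 by edgeR), and it ranged over the alternatives from −0.43 with depth class (adjusted p = 0.472) and −0.28 without replicates 4 and 5 (adjusted p = 0.281) to 0.029 with total-count scaling. *Slc2a3* (chr6:122727809-122801640, minus) ran from 161 through 218 to 265 in Ctrl and was 314, 262, 276, 293 and 314 in β-Mfn1/2DKO. A single double knockout library lay below the highest Ctrl library. *Slc2a3* rose 1.35-fold (log2 0.44, SE 0.14, adjusted p = 0.0324 by edgeR). This call did not hold with the authors' normalization factors (0.18, adjusted p = 0.597), without replicates 4 and 5 (0.42, adjusted p = 0.106) or, by edgeR with 1 library left out, without Ctrl replicate 3, 4 or 5 or β-Mfn1/2DKO replicate 1 or 5 (0.37 to 0.43, adjusted p = 0.0545 to 0.0834).

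Within a library, *Slc2a2* held most of the summed TPM of the 3 transporters. Its share was 88.4% to 94.4% in Ctrl (mean 92.4 ± 2.39%, SD, n = 6), 88.7% to 93.7% in β-Mfn1KO and 91.0% to 95.8% in β-Mfn2KO. It was 85.1%, 84.4%, 84.6%, 72.0% and 74.8% in β-Mfn1/2DKO replicates 1 to 5, a mean of 80.2 ± 6.30% (SD, n = 5). No double knockout library reached the lowest share of the other groups, and *Slc2a2* remained the most abundant of the 3 in each library. The *Slc2a1* share was 6.79 ± 2.21% in Ctrl and 17.0 ± 5.78% in β-Mfn1/2DKO.

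*G6pc2* (chr2:69211073-69227841, plus) encodes the subunit that dephosphorylates glucose-6-phosphate in β-cells. It ran from 43643 through 58866 to 62082 normalized counts in Ctrl and was 29266, 30940, 26613, 25418 and 25168 in β-Mfn1/2DKO, with no overlap. It fell 2.02-fold (log2 −1.02, SE 0.10, 95% interval −1.23 to −0.80, adjusted p = 3.96e-07 by edgeR). *G6pc3* (chr11:102189620-102194081, plus) ran from 1510 through 1590 to 1924 in Ctrl and was 1935, 2034, 1851, 1890 and 1553 in β-Mfn1/2DKO. The groups overlapped, through the highest Ctrl library and the lowest double knockout library. Its log2 difference was 0.19 (SE 0.07, adjusted p = 0.0644 by edgeR), and it passed with total-count scaling (0.33, adjusted p = 0.00592), with the acinar score as a covariate (0.24, adjusted p = 0.0127), without replicates 4 and 5 (0.27, adjusted p = 0.0111) and, with 1 library left out, without Ctrl replicate 3, β-Mfn2KO replicate 3 or 5 or β-Mfn1/2DKO replicate 5 (0.21 to 0.24, adjusted p = 0.00928 to 0.038). The TPM ratio of *G6pc2* to *G6pc3* was 38.9 ± 7.01 in Ctrl and 16.8 ± 1.16 in β-Mfn1/2DKO. It was lower in each double knockout library, at 15.2 to 18.3, than in any Ctrl library, at 28.5 to 44.9.

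**Figure D2:**
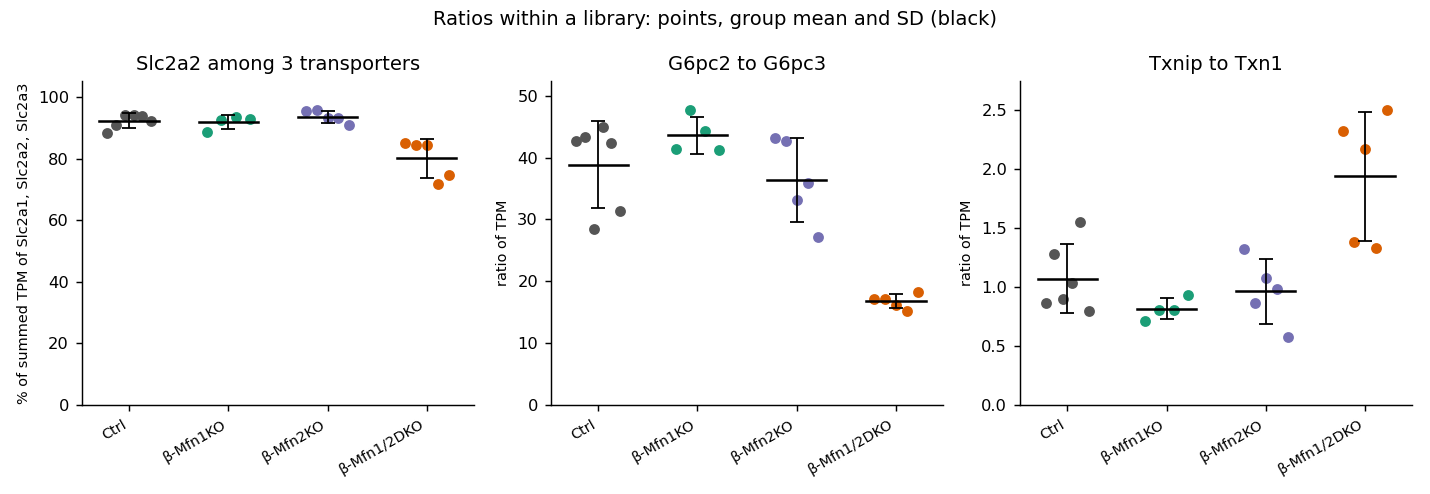
Ratios of TPM within each library by genotype (1 point per library, group mean and SD in black, y axes from 0): the percent share of *Slc2a2* in the summed TPM of 3 transporters, *G6pc2* to *G6pc3*, and *Txnip* to *Txn1*. The double knockout means are 80.2%, 16.8 and 1.94, against 92.4%, 38.9 and 1.07 in Ctrl.

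*Mlxipl* (chr5:135089890-135138382, plus), the ChREBP gene, ran from 6843 through 12079 to 14697 in Ctrl and was 13092, 11554, 12219, 8433 and 11951 in β-Mfn1/2DKO. The double knockout libraries lay inside the Ctrl range. The log2 difference was −0.02 (SE 0.15, 95% interval −0.34 to 0.30, adjusted p = 0.965 by edgeR), which leaves fold changes from 0.791 to 1.23 within the interval, and it was 0.12 with total-count scaling. The gene count does not separate the isoforms that start at the 2 annotated promoters of *Mlxipl*.

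*Txnip* (chr3:96557957-96561883, plus) rose. It ran from 5719 through 6853 to 10480 in Ctrl and was 12593, 8290, 10695, 9251 and 18303 in β-Mfn1/2DKO. The groups overlapped, since double knockout replicates 2 and 4 lay below the highest Ctrl library, and replicate 5 stood far above the rest. The rise was 1.55-fold (log2 0.63, SE 0.18, adjusted p = 0.0153 by edgeR). It did not pass by edgeR without β-Mfn1/2DKO replicate 5 (0.42, adjusted p = 0.0765), without replicates 4 and 5 (0.49, adjusted p = 0.0584) or with the authors' normalization factors (0.45, adjusted p = 0.115). *Gm15441* lies on the opposite strand of *Txnip*, shares 606 exonic bases with it and had 0.708% as many counts. Whether counting used the strand is not given in the sources used here. Of the 75-base stretches of *Txnip* transcripts 13.8% also occur in other genes, read on both strands. Stretches shared with *Gm15441* are included, and their part was not separated.

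*Arrdc4* (chr7:68736995-68749241, minus), an arrestin-domain relative of *Txnip*, rose less. It ran from 748 through 883 to 1174 in Ctrl and was 1226, 1023, 1035, 1026 and 1584 in β-Mfn1/2DKO, where replicate 5 was again highest. A single Ctrl library, replicate 2, exceeded the lowest double knockout library. The rise was 1.29-fold (log2 0.37, SE 0.11, adjusted p = 0.0259 by edgeR). It did not pass by edgeR without β-Mfn1/2DKO replicate 5 (0.24, adjusted p = 0.107), Ctrl replicate 3 (0.31, adjusted p = 0.0667) or Ctrl replicate 5 (0.35, adjusted p = 0.0548), without replicates 4 and 5 together (0.28, adjusted p = 0.0838), with the acinar score as a covariate (0.28, adjusted p = 0.0897), in a fit of these 2 groups alone (0.38, adjusted p = 0.0568) or with the authors' normalization factors (0.36, adjusted p = 0.0756). The TPM ratio of *Txnip* to *Arrdc4* was 8.52 to 15.8 in Ctrl and 10.5 to 14.9 in β-Mfn1/2DKO, and thus overlapped. That of *Txnip* to *Txn1*, the thioredoxin its protein inhibits, was 0.792 to 1.55 in Ctrl and 1.33 to 2.50 in β-Mfn1/2DKO.

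The promoters of *Txnip* and *Arrdc4* are shown because both genes rose and both are known ChREBP targets. The 250 bases before each RefSeq start (GRCm38.p6) are printed 5′ to 3′ on the gene's strand, from chr3:96557707-96557956 (plus) and chr7:68749239-68749488 (minus). Capitals mark, in *Txnip*, the match to a carbohydrate response element pattern, CACGNG and CNCGNG spaced by 5 bases, and, in *Arrdc4*, a perfect E-box CACGTG.
Txnip: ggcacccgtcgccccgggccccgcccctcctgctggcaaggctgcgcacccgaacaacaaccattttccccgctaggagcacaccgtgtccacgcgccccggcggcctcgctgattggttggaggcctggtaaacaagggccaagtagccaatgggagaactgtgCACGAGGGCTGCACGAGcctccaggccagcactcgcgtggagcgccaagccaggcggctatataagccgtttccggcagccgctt
Arrdc4: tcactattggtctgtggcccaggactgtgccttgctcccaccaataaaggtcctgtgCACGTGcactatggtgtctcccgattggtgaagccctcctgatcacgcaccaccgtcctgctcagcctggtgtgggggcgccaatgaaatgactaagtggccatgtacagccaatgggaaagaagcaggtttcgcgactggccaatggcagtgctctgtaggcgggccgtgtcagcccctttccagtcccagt

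The *Txnip* match begins 85 bases before the start, and 120 of 32851 mouse promoter windows of the same length, from 250 bases before to 50 after a start (0.365%), read on both strands, hold the pattern. The *Arrdc4* E-box begins 193 bases before the start, and 7.15% of windows hold one. *G6pc3* has this E-box 99 and 79 bases before its start and *Mlxipl* has it 98 bases before 1 of its 2 starts, and neither gene passed the test. The CCAAT box, present in 37.4% of windows, occurs at 2 places in the *Txnip* window and at 6 in that of *Arrdc4*. *Slc2a2* has it at 2 places before its start, and the windows of *G6pc2* hold none of these 3 patterns. CACGTG can overlap the longer pattern. The patterns were chosen after the sequences were seen, and a match is a description of letters.

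*Txnip* and *Arrdc4* also varied together among libraries of 1 genotype. The deviations of log2 CPM from the genotype means had Pearson's r = 0.765 (permutation p = 0.00135 within genotypes, two-sided, adjusted p = 0.0221 over 28 member pairs) and Spearman's rho = 0.725 (permutation p = 0.00209, adjusted p = 0.0283), over 20 libraries. Without the 2 libraries farthest from the median of *Txnip*, β-Mfn1/2DKO replicate 5 and Ctrl replicate 5, r was 0.807. In the 13 libraries up to 40000000 counts r was 0.611 and in the 7 deeper ones 0.926. With 1 library left out r stayed between 0.633 and 0.889, but none of the 28 pairs passed after adjustment without β-Mfn1KO replicate 4, β-Mfn2KO replicate 1 or β-Mfn1/2DKO replicate 1, 4 or 5.

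*Slc2a1* ran against *Slc2a2* (r = −0.678, permutation p = 0.00158, adjusted p = 0.0221; rho = −0.678, permutation p = 0.00303, adjusted p = 0.0283) and against *Mlxipl* (r = −0.695, permutation p = 0.005, adjusted p = 0.0467; rho = −0.663, permutation p = 0.00196, adjusted p = 0.0283). Without the 2 farthest libraries r was −0.620 and −0.654. It was −0.546 and −0.694 in the shallower libraries and −0.906 and −0.723 in the deeper ones. The other 25 pairs did not pass. Without the acinar-rich replicates 4 and 5 none of the 28 pairs passed by the permutation test, while total-count scaling left 1.

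**Figure D3:**
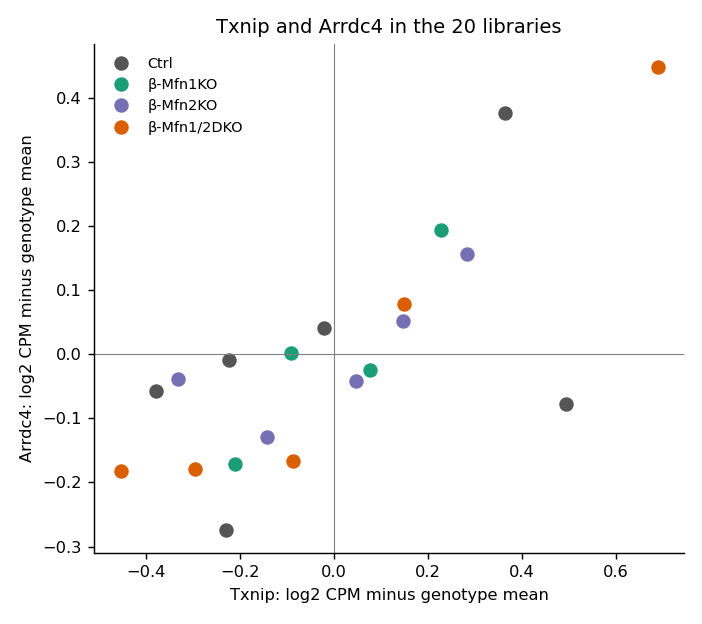
Deviation of log2 CPM from the genotype mean for *Txnip* (x axis) and *Arrdc4* (y axis), with 1 point per library coloured by genotype. The 20 points run upward from left to right (r = 0.765), and β-Mfn1/2DKO replicate 5 stands at the upper right.

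Neither single knockout changed a member past the test. In β-Mfn2KO against Ctrl 0 of 8 passed by edgeR and by DESeq2, and 0 had an unadjusted p under 0.05. Over all genes 0.0559% passed. The largest differences were *Slc2a1* at −0.18 (95% interval −0.49 to 0.12) and *Slc2a2* at 0.18 (−0.13 to 0.48), and all groups overlapped, against 0.416% of genes that did not. *Slc2a2* was 26134, 29677, 21391, 23031 and 17263 in β-Mfn2KO, which spans the Ctrl range. In β-Mfn1KO against Ctrl 0 of 8 passed by edgeR and by DESeq2, beside 0.0279% of all genes, and 2 had an unadjusted p under 0.05. These were *G6pc2* at 0.23 (95% interval 0.01 to 0.45, adjusted p = 0.653 by edgeR) and *Mlxipl* at −0.37 (−0.71 to −0.02, adjusted p = 0.653 by edgeR). *G6pc2* was 66201, 68861, 62875 and 63543 in β-Mfn1KO, above all 6 Ctrl libraries, as 0.967% of genes did not overlap. *Mlxipl* was 7087, 8878, 10731 and 9256 there, within the Ctrl range.

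**Figure D4:**
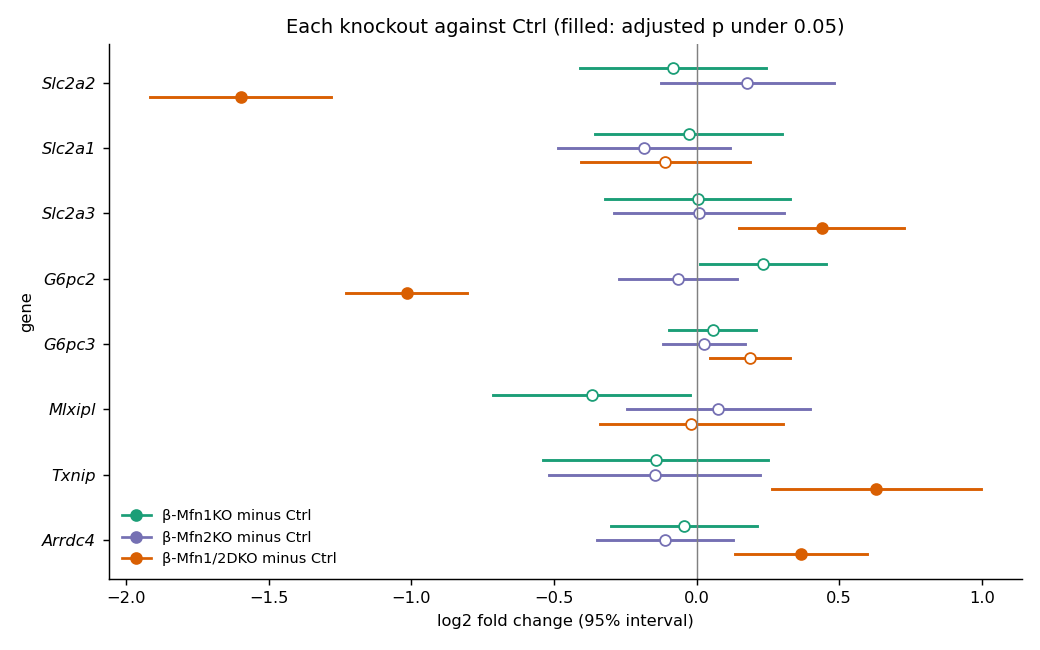
Log2 fold change of each member (rows) against Ctrl with its 95% interval, for β-Mfn1KO, β-Mfn2KO and β-Mfn1/2DKO. Filled points passed at an adjusted p under 0.05: 5 of 8 in β-Mfn1/2DKO, with *Slc2a2* at −1.60 farthest from 0, and 0 of 8 in each single knockout.

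The same genes were set against the single knockouts, which share the β-Mfn1/2DKO libraries with the comparison above. Against β-Mfn2KO 5 of 8 passed, 3 higher and 2 lower (13.0% of all genes, 7.09% higher and 5.90% lower), and 3 did not overlap (11.8%). *Slc2a2* was lower at log2 −1.78 and *G6pc2* at −0.95. *Txnip* was higher at 0.78 (adjusted p = 0.00632 by edgeR), *Arrdc4* at 0.48 (adjusted p = 0.00714) and *Slc2a3* at 0.43 (adjusted p = 0.0495). *Arrdc4* was 942, 773, 821, 877 and 823 in β-Mfn2KO, each below the 1023 of the lowest double knockout library. In libraries above 40000000 counts, 5 against 2, *Txnip* stood at 0.91 (adjusted p = 0.106) and *Arrdc4* at 0.52 (adjusted p = 0.11), and 2 members passed. Over all genes 1815 of 28426 passed there. With depth class as a covariate *Arrdc4* was at 0.47 (adjusted p = 0.0829). *Slc2a3* lost its call when any of 12 libraries was left out, in turn Ctrl 2, 3, 5 or 6, β-Mfn1KO 4, β-Mfn2KO 1, 2, 3 or 4, or β-Mfn1/2DKO 1, 4 or 5 (adjusted p up to 0.129 by edgeR), and under 8 of the other alternatives (0.22 to 0.44, adjusted p = 0.0512 to 0.502).

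Against β-Mfn1KO 4 of 8 passed, 2 higher and 2 lower (17.4% of all genes, 9.67% higher and 7.69% lower), and the same 4 did not overlap (18.2%). *Slc2a2* was at −1.51, *G6pc2* at −1.25, *Txnip* at 0.77 (adjusted p = 0.00803 by edgeR) and *Arrdc4* at 0.41 (adjusted p = 0.0251). *Slc2a3* was at 0.43 (95% interval 0.11 to 0.76, adjusted p = 0.0591 by edgeR) and did not pass. It passed in 3 of 11 alternatives and in 5 of 20 fits with 1 library left out. *Txnip* was 6448, 7240, 5933 and 8047 in β-Mfn1KO, below all 5 double knockout libraries. With the acinar score as a covariate *Txnip* was at 0.52 (adjusted p = 0.0998) and *Arrdc4* at 0.26 (adjusted p = 0.239). *Arrdc4* also did not pass without β-Mfn1KO replicate 1, 2 or 3 or β-Mfn1/2DKO replicate 5 (0.28 to 0.41, adjusted p = 0.0586 to 0.0895), without replicates 4 and 5 together (0.33, adjusted p = 0.0573) or with the authors' factors (0.34, adjusted p = 0.155). With depth class neither passed (0.92 and 0.40, adjusted p = 0.147 and 0.377).

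The difference between effects was tested as an interaction, the effect of losing *Mfn1* in mice without *Mfn2* minus that in mice with *Mfn2*. It passed for 3 of 8 members, beside 5.92% of all genes. The log2 interaction was −1.69 for *Slc2a2* (SE 0.22, adjusted p = 0.000117 by edgeR), −1.19 for *G6pc2* (SE 0.15, adjusted p = 9.85e-05) and 0.92 for *Txnip* (SE 0.27, adjusted p = 0.0423). For *Arrdc4* it was 0.52 (SE 0.17, adjusted p = 0.0748). The *Txnip* interaction did not pass without replicates 4 and 5 (0.78, adjusted p = 0.0599), with the acinar score (0.70, adjusted p = 0.128), depth class (1.01, adjusted p = 0.0921) or the authors' factors (0.94, adjusted p = 0.0565), nor without any 1 of 11 libraries, Ctrl 2, 4 or 5, β-Mfn1KO 1, 2 or 3, β-Mfn2KO 2, 4 or 5, or β-Mfn1/2DKO 1 or 5 (0.71 to 0.96, adjusted p up to 0.0898). That of *Arrdc4* passed without Ctrl replicate 3 or β-Mfn1/2DKO replicate 2, 3 or 4 (adjusted p = 0.0384 to 0.0499), by DESeq2 and with total-count scaling (0.65, adjusted p = 0.00983). Whether the double knockout effect differed between sexes was also tested. It passed for 0 of 8 members by edgeR and by DESeq2, and for 0% of all genes by edgeR. Before adjustment 2 members were under 0.05, *Slc2a2* (male minus female −0.50) and *Slc2a1* (0.69), and both acinar-rich double knockout libraries are male.

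The other genes of the pathway moved in both directions in β-Mfn1/2DKO. Of 47 listed genes 46 were in the table, and 19 passed, 8 higher and 11 lower. The background is 16.5% of all genes (9.59% higher, 6.86% lower) and 33.6% of those whose mean reached 100 normalized counts. Their median log2 difference was −0.03, beside 0.06 over all genes. With depth class as a covariate 5 of 46 passed, beside 728 of all 28632 genes. *Slc2a6* (−1.42, adjusted p = 0.0302 by edgeR) and *Scd2* (−0.88, adjusted p = 0.0225) were among the 5. This covariate left *Slc2a5* at −0.46 (adjusted p = 0.0919), *Mlx* at −0.26 (adjusted p = 0.188), *Pklr* at 0.55 (adjusted p = 0.102), *Klf10* at 0.49 (adjusted p = 0.0976), *Rgs16* at 0.77 (adjusted p = 0.103) and *Mid1ip1* at 0.43 (adjusted p = 0.0509). *Thrsp* was then at −1.49 (adjusted p = 0.112), *Fgf21* at 2.22 (adjusted p = 0.385), *Slc5a1* at −1.25 (adjusted p = 0.258), *Slc37a4* at −0.16 (adjusted p = 0.673) and *Fasn* at −0.11 (adjusted p = 0.776). In β-Mfn2KO and in β-Mfn1KO 0 of 46 passed by edgeR and by DESeq2, and 3 and 9 had an unadjusted p under 0.05.

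Among 10 other hexose transporters 3 fell and 0 rose, beside 6.86% and 9.59% of all genes. *Slc2a6*, which encodes Glut6, was at log2 −1.84 (SE 0.21, mean 34.2 normalized counts against 124 in Ctrl). *Slc2a5*, the fructose transporter Glut5, was abundant and fell from 7199 to 4294 (log2 −0.75, SE 0.09). *Slc5a1*, the sodium-glucose cotransporter Sglt1, was sparse at 18.6 against 34.3 (log2 −0.88, adjusted p = 0.0397 by edgeR), and did not pass with total-count scaling (−0.74, adjusted p = 0.0807) or without Ctrl replicate 1, 2, 3, 4 or 5 or β-Mfn1/2DKO replicate 1, 2 or 3 (adjusted p = 0.0565 to 0.112).

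Of 9 genes of glucose phosphorylation and glucose-6-phosphate 1 rose and 3 fell, beside 9.59% and 6.86% of all genes. Of genes whose mean reached 100 normalized counts 33.6% passed in either direction. *Slc37a4*, the glucose-6-phosphate transporter of the endoplasmic reticulum that supplies G6pc2, was at −0.32 (SE 0.08, adjusted p = 0.00693), and did not pass with total-count scaling (−0.18, adjusted p = 0.135) or without replicates 4 and 5 (−0.19, adjusted p = 0.121). *Hk1*, a low-Km hexokinase that β-cells normally hold low, rose to 692 from 500 (log2 0.46, adjusted p = 0.0473 by edgeR), and did not pass without replicates 4 and 5 (0.28, adjusted p = 0.335) or under 5 more alternatives (adjusted p = 0.0568 to 0.803). It also lost the call without Ctrl 3, 4, 5 or 6, β-Mfn1KO 3 or 4, β-Mfn2KO 4 or β-Mfn1/2DKO 4 or 5, 1 at a time (adjusted p = 0.0512 to 0.134). *G6pdx*, the first enzyme of the pentose phosphate pathway, was lower as well (−0.30, adjusted p = 0.00185), named after its value was seen.

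*Mlx*, the partner that ChREBP needs to bind DNA, fell (log2 −0.29, SE 0.05, adjusted p = 0.000496 by edgeR, −0.15 and adjusted p = 0.0611 with total-count scaling). *Mlxip*, the related sensor MondoA, was at 0.05 (95% interval −0.06 to 0.16), and passed in 1 of 11 alternatives. Of 17 carbohydrate-response targets 6 rose and 4 fell, beside 9.59% and 6.86% of all genes. *Fgf21*, a secreted stress hormone also made by acinar cells, was 20.7 to 232 against 6.23 to 17.5 (log2 2.90, adjusted p = 0.00145 by edgeR), and 1.08 (adjusted p = 0.0805) without the acinar-rich replicates 4 and 5. *Pklr*, the liver-type pyruvate kinase, rose from 901 to 1234 (log2 0.46, SE 0.10, adjusted p = 0.00151). The transcription factor *Klf10* (0.51), the G protein regulator *Rgs16* (0.48) and *Mid1ip1* (0.33), whose product activates acetyl-CoA carboxylase, rose as well. With the authors' factors *Mid1ip1* did not pass (0.20, adjusted p = 0.0563).

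The 4 targets that fell were *Thrsp* (log2 −1.22, mean 19.4 against 45.8), the desaturase *Scd2* (−1.02, 4064 against 8250.3), the fatty acid synthase *Fasn* (−0.33, and −0.19 with an adjusted p of 0.059 by total-count scaling) and the acetyl-CoA carboxylase *Acaca* (−0.22, adjusted p = 0.00273 by edgeR), the last named after its value was seen. Of 8 measured arrestin-domain and thioredoxin genes 1 passed, beside 16.5% of all genes and 33.6% of those whose mean reached 100 normalized counts. This was *Arrdc1* at 0.21 (adjusted p = 0.0244 by edgeR), also named after its value was seen. *Txn1* was at −0.23 (95% interval −0.43 to −0.02, adjusted p = 0.132 by edgeR). With 1 library left out it passed only without β-Mfn1/2DKO replicate 5 (−0.30, adjusted p = 0.0446). It passed in 4 of 11 other alternatives. Among these were fits without replicates 4 and 5 (−0.37, adjusted p = 0.013) and with the acinar score (−0.33, adjusted p = 0.0174) or depth class (−0.59, adjusted p = 0.0392).

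**Figure D5:**
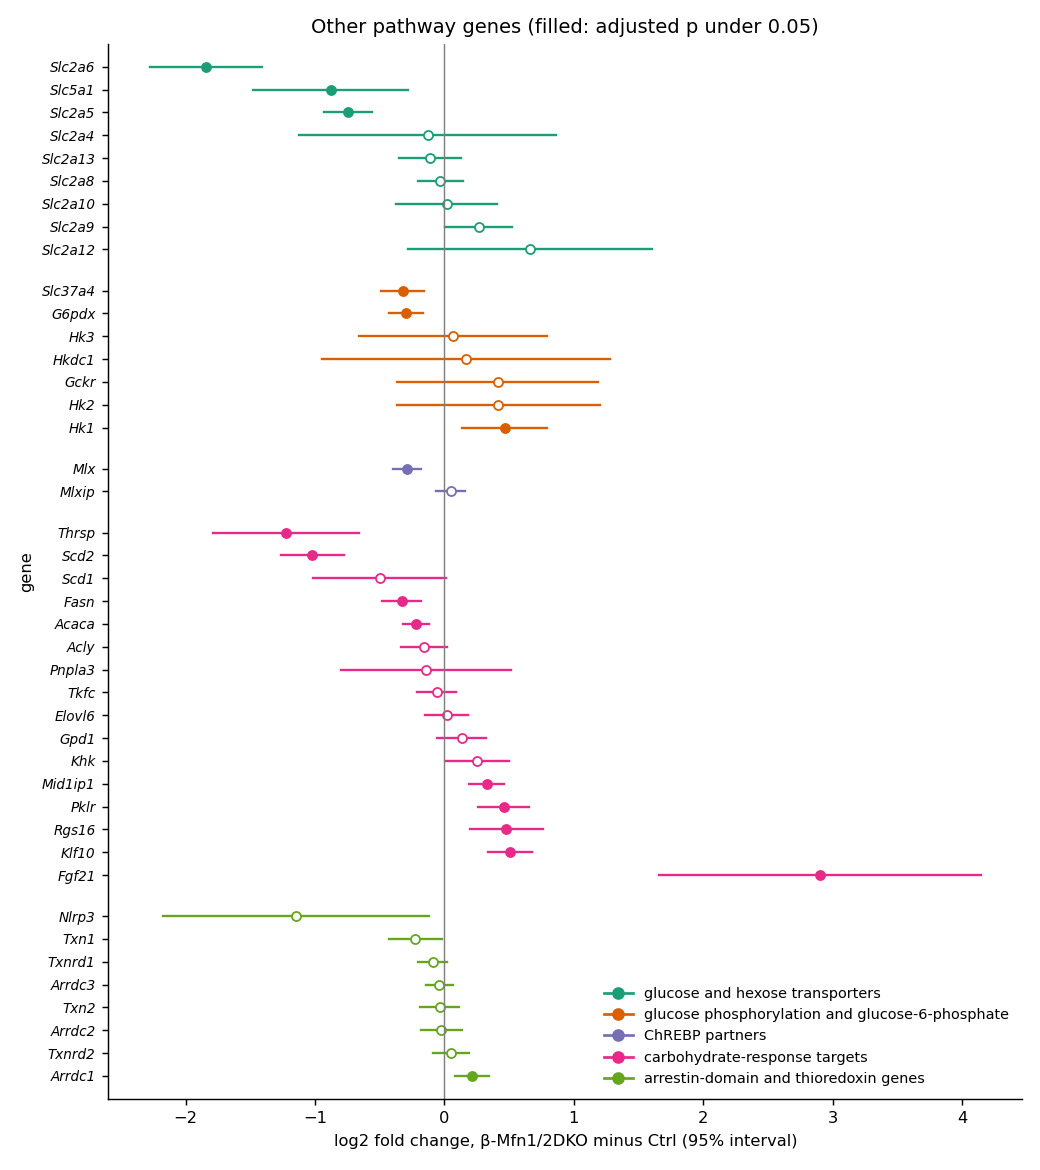
Log2 fold change in β-Mfn1/2DKO against Ctrl with its 95% interval for 42 of the 46 measured pathway genes, coloured by list, with filled points at an adjusted p under 0.05. The points lie on both sides of 0 in the target list, from *Thrsp* at −1.22 to *Fgf21* at 2.90. *G6pc* and *Slc5a2*, with group means under 1.5 counts, are among those not drawn.

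The genes most like *Slc2a2* over the 20 libraries, by the root-mean-square difference of z-scored log2 CPM among the 12274 genes whose mean reached 100 normalized counts, were *Itpkb* (0.209), *Sytl4* (0.222) and *Ucn3* (0.226). For *Txnip* they were *Ypel3* (0.466), *Arrdc4* (0.491) and *Hes1* (0.498). For *Arrdc4* they were *Txnip* (0.491), *Gas2l1* (0.506) and *Kcnip3* (0.518), so *Txnip* was the closest of all genes compared to *Arrdc4*, and *Arrdc4* the second closest to *Txnip*. The measure takes in the differences between genotypes.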

How the data were processed

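The authors sequenced islet RNA as paired-end reads, aligned them with STAR 2.6.1b to GRCm38 and estimated counts with RSEM 1.3.1, after cutadapt 2.3 and FastQC 0.11.8. The deposited table holds these expected counts as whole numbers, and rows without any count were removed. The other deposited file gives the same counts after the authors divided them by normalization factors, a depth-normalized signal. These factors differ between genes of a library, and how they were made is not given in the sources used here. It served only to recover those factors, an alternative chosen after seeing the data.

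Counts of 28632 genes in 20 libraries entered edgeR 4.0.16 under R 4.3.3 (TMM, estimateDisp, glmQLFit, glmQLFTest), in 1 fit with 1 coefficient per genotype, no filter and no covariate, with Benjamini-Hochberg adjustment over all genes. The study's DESeq2 (here 1.42.0) was an alternative because quasi-likelihood was the main test for counts. Intervals of log2 differences use the fit's 22.2 degrees of freedom. TPM here are counts per exonic length in GENCODE mouse release 21, used within a library and not scaled between libraries. Correlations used 100000 permutations within genotypes. Groups, sexes and replicate numbers come from the labels, and each library stands for 1 mouse per the study's account. Depth was 12400687 to 122947313 counts, and counting error covers only part of the spread between mice.

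The members and lists were chosen with earlier results of these data known. Members are named throughout. Other pathway genes were named where a fixed list asked for them (such as *Mlx*, *Mlxip*, *Pklr*, *Hk1*, *Slc37a4*, *Txn1*) or as the up to 14 largest changes with an adjusted p under 0.05 and a mean of at least 20 normalized counts. Some genes that this rule names are not reported here. *Arrdc5* has no row in the table used here. Of the genes, 71 had no symbol. Promoter sequences are from RefSeq, which had entries for 7 of the 8 members. Python 3.11.15, NumPy 2.4.6, pandas 2.3.3, SciPy 1.17.1 and Matplotlib 3.10.9 were used.

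The alternatives were DESeq2, its size factors in edgeR, total-count scaling, the filterByExpr filter, the compared groups alone, covariates of sex, of replicate number, of acinar score (mean log2 CPM of 12 acinar genes) or depth class (above 40000000 counts), fits without β-Mfn1/2DKO replicates 4 and 5, deep libraries only, and each library left out in turn.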

Additional observations from a re-analysis of the deposited data

Results flagged for a closer look

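*G6pc3* in Ctrl replicate 3, at 1923.7 normalized counts, stood apart from the other 5 Ctrl libraries by Dixon's criterion. Of 32 groups of members and genotypes tested it was 1, and chance alone gives about 1 in 20.

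The effect of losing *Mfn1* differed with the state of *Mfn2* for 3 members by the edgeR interaction term. The log2 difference of effects was −1.19 for *G6pc2*, −1.69 for *Slc2a2* and 0.92 for *Txnip*.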

How the results depend on the processing

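*Slc2a2* and *G6pc2* kept their direction and passed in all alternatives for β-Mfn1/2DKO against Ctrl and against either single knockout, and for the interaction, and the single knockout comparisons stayed at 0 members throughout. Of 5 members changed in β-Mfn1/2DKO against Ctrl 2 were left with depth class as a covariate and 2 with the authors' normalization factors. Without the acinar-rich replicates 3 members passed, *Slc2a2*, *G6pc2* and *G6pc3*. *G6pc3* was not among the 5, and *Txnip*, *Arrdc4* and *Slc2a3* did not pass there. Against β-Mfn2KO the count of 5 became 3 with depth class and 2 in deep libraries, and against β-Mfn1KO the count of 4 became 7 with total-count scaling, 2 with the acinar score and 2 with depth class. The 19 pathway genes became 5 with depth class, and the 3 covarying pairs 1 with total-count scaling and 0 without the acinar-rich replicates. The causes were not tested. Depth class and genotype are separated by 2 deep β-Mfn2KO libraries alone, which limits that fit. Leaving out 1 library gave 3 to 6 members against Ctrl (3 without Ctrl replicate 5 or β-Mfn1/2DKO replicate 5), 4 to 5 against β-Mfn2KO, 3 to 5 against β-Mfn1KO, 2 to 4 for the interaction, 16 to 19 pathway genes and 0 to 5 pairs (0 without β-Mfn1KO 4, β-Mfn2KO 1 or β-Mfn1/2DKO 1, 4 or 5, 1 without β-Mfn1KO 1, 5 without β-Mfn2KO 2). Total-count scaling moved the log2 differences of β-Mfn1/2DKO against Ctrl by a median of 0.138 and the share of higher genes among those passing from 58.3% to 85%. Over all genes 4710 passed in that comparison, and 728 with depth class. Against β-Mfn2KO 3719 genes passed, 1683 with depth class and 1815 of 28426 in deep libraries.

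Values near 0 changed sign. *Slc2a1* against Ctrl was 0.029 in β-Mfn1/2DKO by total-count scaling and 0.051 in β-Mfn1KO with the acinar score. Against β-Mfn2KO it was −0.0035 with the acinar score, −0.098 with depth class, −0.11 without the acinar-rich replicates and −0.052 in deep libraries, and against β-Mfn1KO 0.078 by total-count scaling. Its interaction was −0.054, −0.070 and −0.074 with the acinar score, depth class and without those replicates. *Slc2a3* in β-Mfn2KO was −0.00014 with DESeq2 size factors, −0.042 with depth class and −0.049 with the authors' factors. In β-Mfn1KO it was −0.025 by total-count scaling, −0.0020 after filterByExpr, −0.0042 with sex, −0.012 with the acinar score, −0.0011 without the acinar-rich replicates and −0.069 with the authors' factors. *G6pc2* in β-Mfn2KO was 0.042 with depth class. *Mlxipl* in β-Mfn1/2DKO against Ctrl was 0.12 by total-count scaling, 0.054 with the replicate block, 0.041 with the acinar score, 0.11 with depth class and 0.11 without those replicates, and against β-Mfn2KO 0.019 by total-count scaling, 0.027 without them and 0.031 in deep libraries. *Arrdc4* in β-Mfn1KO was 0.021 with the acinar score and 0.027 with the authors' factors, and *Mlxip* −0.037 with the latter.

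With 1 library left out, signs changed for *Arrdc4* (−0.11 to 0.045), *Slc2a1* (−0.11 to 0.12), *Slc2a2* (−0.19 to 0.022) and *Slc2a3* (−0.12 to 0.091) in β-Mfn1KO, and *G6pc2* (−0.13 to 0.017), *Mlxipl* (−0.038 to 0.16) and *Slc2a3* (−0.089 to 0.075) in β-Mfn2KO. They also changed for *Mlxipl* (−0.13 to 0.10) and *Slc2a1* (−0.17 to 0.035) in β-Mfn1/2DKO, *Mlxipl* against β-Mfn2KO (−0.13 to 0.017), *Slc2a1* against β-Mfn1KO (−0.14 to 0.0041) and the *Slc2a1* interaction (−0.041 to 0.19).

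Replicate numbers were not taken to pair the samples, since the labels tie them to no litter or day and 16 of 27 same-numbered pairs, not all, deviated together with a correlation over 0.1 (mean 0.123, lowest −0.126, and mean −0.027 for other pairs). With the replicate block 5, 4, 4 and 3 members passed against Ctrl, β-Mfn2KO and β-Mfn1KO and for the interaction, and 21 pathway genes.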
